A study of Homo sapiens with 8 samples.

Results

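The activin, inhibin and follistatin genes examined here are 10 genes of the activin branch of the TGF-beta family. They were chosen by name, with earlier results of these data known. The set holds the ligand subunits INHA, INHBA, INHBB, INHBE and GDF11, the ligand-binding proteins FST and FSTL3, the receptors ACVR1C and ACVR2A, and the feedback gene PMEPA1. They make up 10 of the 21524 named genes on the array and are measured by 13 of 50599 probes. NGP, an established human neuroblastoma line, had received either CFC1 cDNA or a mock construct through a lentivirus and had been selected with puromycin. RNA of 4 samples labelled CFC1 and 4 labelled mock was hybridised to one-colour Agilent arrays. Both groups therefore share the line, the viral transduction and the puromycin selection. Whether they came from separate cultures is not in the labels, and the p-values therefore cover only array-to-array spread, which may be technical.

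Activins are dimers of inhibin beta subunits, and inhibins pair a beta subunit with the alpha subunit encoded by INHA. Activins bind type II receptors such as ACVR2A, which activate type I receptors such as ACVR1B and ACVR1C, and these phosphorylate SMAD2 and SMAD3, whereas inhibins compete for the type II receptors and follistatins bind the ligands outside the cell. Cryptic, the product of CFC1, sits at the cell surface and helps Nodal, a ligand that shares these receptors with activin, to signal. All values below are read as log2 values, because their log base is not stated, and the folds rest on this reading. They are relative to a baseline that is not stated for each probe, so they give differences between arrays and no level of expression. Every difference is the mean of the arrays labelled CFC1 minus the mean of the mock arrays, and a probe was called when the Benjamini-Hochberg adjusted p from limma over all 50599 probes lay below 0.05.

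CFC1 itself did not rise in the group that carries its name. The only CFC1 probe read 0.05, -0.69, -0.59 and -0.30 in the arrays labelled CFC1, against 0.47, 1.10, 0.12 and -0.03 in the mock arrays. The difference of -0.80 (95% interval -1.45 to -0.14) had an adjusted p of 0.0546 in limma, and an exact two-sided permutation test gave p = 0.0571 (smallest attainable 0.0286). Where the probe lies relative to the transduced cDNA is not known here, and every direction below rests on the labels. The arrays correlated at 0.461 to 0.524 within the CFC1 label, at 0.81 to 0.823 within mock, and at -0.02 to 0.048 between the groups, over probes, which are not independent replicates. These correlations were taken on values relative to the unstated baseline, so they are not correlations of expression levels. They depend on where that baseline lies, and low ones do not show poor replicates or unrelated groups.

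INHBB and PMEPA1 were higher and FST was lower in the arrays labelled CFC1. FSTL3, the other binding protein, was called higher by 0.21, a call lost under several alternatives. ACVR2A, a type II receptor, was higher, while ACVR1C, a type I receptor, was lower with 2 of its 3 probes and not called with the other. Of the 13 member probes, 5 were called higher and 3 lower, where 42.1% of all probes were called. Taken as means of the probes of a gene, 4 members were called higher and 3 lower of 10, where 57.9% of all genes were called, so the share of members called stands close to that of named genes in general. By role, 1 of 5 ligand subunit probes was called, against 2 of 2 probes of the binding proteins, 3 of 4 probes of the receptors and 2 of 2 probes of the feedback gene. These are counts of probes and not of genes, because ACVR1C has 3 of the receptor probes and PMEPA1 has both feedback probes. By gene mean the ligand subunit GDF11 was called as well (limma adjusted p = 0.0304). With so few genes per role, the counts do not set the roles apart. The groups did not overlap in 9 of 13 member probes, where 42.6% of all probes show the same, and by gene mean in 7 of 10 members, where 56.5% of all genes do. The median difference was 0.15 over the member probes and -0.13 over all probes.

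**Figure D1:**
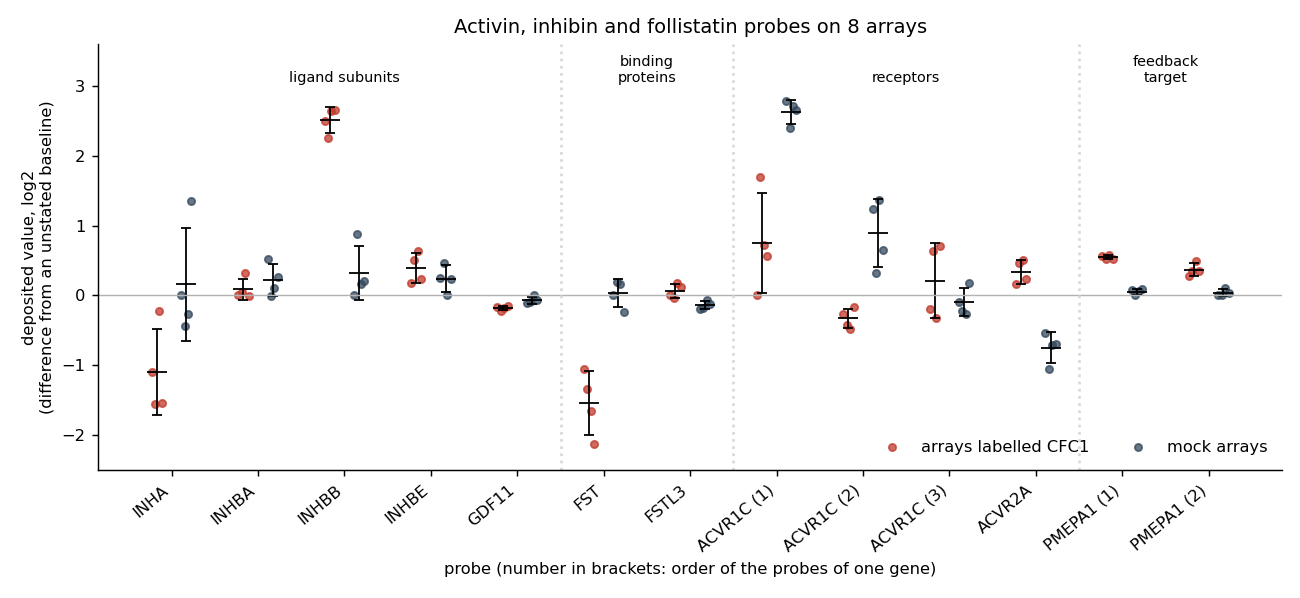
Deposited values, read as log2, of the 13 member probes (vertical axis, relative to an unstated baseline). The 4 arrays labelled CFC1 are red (left of each pair) and the 4 mock arrays dark (right). Points are arrays, bars the mean and SD. INHBB lies between 2.26 and 2.66 in the arrays labelled CFC1 and at 0.88 or below in the mock arrays, while FST lies at -1.05 or below and at -0.24 or above.

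The upstream sequences of INHBB and FST are shown because these members had the largest rise and the largest fall by gene mean, and the second of 4 start windows of PMEPA1 because it holds the letters of both a SMAD and a FOXH1 motif, the factors through which activin and Nodal act. Each runs 5′ to 3′ over the 250 bases before the annotated transcript start, from RefSeq (GRCh38.p14), at chr2:120345886-120346135 (plus strand) for INHBB, chr5:53480379-53480628 (plus strand) for FST and chr20:57710578-57710827 (minus strand) for PMEPA1. Capitals mark matches on either strand to CAGAC (SMAD), TGTGGATT (FOXH1), CACGTG (E-box, bound by MYCN) and GGGCGG (GC box).
INHBB: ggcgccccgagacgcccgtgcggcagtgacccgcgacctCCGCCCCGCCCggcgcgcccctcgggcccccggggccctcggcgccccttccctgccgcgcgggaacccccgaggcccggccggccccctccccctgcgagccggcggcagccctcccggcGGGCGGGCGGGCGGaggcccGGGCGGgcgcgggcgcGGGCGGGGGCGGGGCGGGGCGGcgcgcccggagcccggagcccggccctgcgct
FST: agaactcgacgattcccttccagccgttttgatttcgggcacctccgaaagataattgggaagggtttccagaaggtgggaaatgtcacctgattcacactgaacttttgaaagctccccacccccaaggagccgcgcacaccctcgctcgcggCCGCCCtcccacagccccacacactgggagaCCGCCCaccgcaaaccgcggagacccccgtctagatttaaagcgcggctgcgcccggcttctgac
PMEPA1: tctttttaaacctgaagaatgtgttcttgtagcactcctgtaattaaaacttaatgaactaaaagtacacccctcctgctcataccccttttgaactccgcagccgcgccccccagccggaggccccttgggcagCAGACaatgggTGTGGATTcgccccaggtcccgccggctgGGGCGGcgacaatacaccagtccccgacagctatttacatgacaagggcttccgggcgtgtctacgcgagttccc

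The INHBB sequence held 10 GC box matches, some of them overlapping, and was 89.6% G or C with 46 CpG sites, where the median of 35116 such windows is 58% and 11 sites. FST had 2 GC box matches and 60.0% G or C. Neither held the SMAD or FOXH1 letters, which 38% and 0.709% of all windows hold, and 42.6% hold a GC box. In the PMEPA1 window, which was picked for these letters, the SMAD letters begin 115 bases and the FOXH1 letters 104 bases before the start. Window 4 of PMEPA1 held the SMAD letters alone of these, 71 bases before its start, and windows 1 and 3 held neither. Windows were found for 9 of the 10 members, 13 windows in all (INHBE had no entry), and besides PMEPA1 the SMAD letters occurred in the window of INHA. No window of a member held the E-box, which 6.34% of all windows hold. A match is a description of letters and not a binding site.

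Among the ligand subunit probes that of INHBB alone was called. INHBB encodes the beta B subunit of activin B and inhibin B. Its probe (A_23_P153964) read 2.50, 2.26, 2.64 and 2.66 in the arrays labelled CFC1, against 0.00, 0.88, 0.17 and 0.21 in the mock arrays. The lowest array labelled CFC1 thus lay well above the highest mock array. The difference of 2.20 (SE 0.2, 95% interval 1.73 to 2.67) is a 4.59-fold rise with an adjusted p of 5.53e-05 in limma, and it kept its call under all 16 alternative settings (2.09 to 2.72).

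INHA, the alpha subunit that turns a beta subunit into an inhibin, averaged -1.10 ± 0.62 in the arrays labelled CFC1 and 0.16 ± 0.81 in the mock arrays (SD, n = 4 each). Its probe (A_23_P51039) read -1.10, -1.55, -0.23 and -1.54 in the arrays labelled CFC1, against 0.00, -0.44, -0.26 and 1.35 in the mock arrays. The groups overlapped, because the third array labelled CFC1 lay within the mock range. The difference of -1.27 (95% interval -2.37 to -0.17) did not pass, with an adjusted p of 0.0677 in limma. After quantile normalization it stood at -1.96 (adjusted p = 0.0427), and without CFC1 replicate 3 at -1.56 (adjusted p = 0.0327), and both of these passed in limma.

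INHBA, the beta A subunit of activin A, gave 0.00, 0.05, 0.32 and -0.01 in the arrays labelled CFC1, against 0.52, -0.01, 0.10 and 0.26 in the mock arrays (A_23_P122924). The groups overlapped almost fully, and the difference of -0.13 (95% interval -0.43 to 0.18, limma adjusted p = 0.474) leaves room for changes of either sign. After quantile normalization its sign turned, at 0.0645 (limma adjusted p = 0.766). Without mock replicate 1 it was -0.0262, without mock replicate 2 or CFC1 replicate 3 -0.202, and once arrays were levelled on the E1A control spots -0.025, none of them called. INHBE, the beta E subunit, known as a liver hepatokine, gave 0.18, 0.51, 0.63 and 0.24, against 0.25, 0.47, 0.00 and 0.23 in the mock arrays (A_24_P141707). That difference was 0.15 (95% interval -0.16 to 0.47, limma adjusted p = 0.412), and after quantile normalization it was 0.521 and passed (limma adjusted p = 0.026). It stood at 0.0744 without CFC1 replicate 3, 0.0758 without mock replicate 3 and 0.232 without mock replicate 2, and was not called there.

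GDF11, a ligand related to myostatin that signals through the same receptors, showed a small difference with tight replicates. Its probe (A_23_P76102) read -0.16, -0.22, -0.18 and -0.15 in the arrays labelled CFC1, against -0.11, -0.09, 0.00 and -0.07 in the mock arrays. All arrays labelled CFC1 lay below all mock arrays, yet the difference of -0.11 (95% interval -0.22 to -0.01) did not pass over all probes (adjusted p = 0.0831 in limma). It passed in the fit over gene means (-0.112, adjusted p = 0.0304) and with unmoderated variances (adjusted p = 0.0187). Since the median of all probes stood at -0.135, GDF11 differed from that median by 0.02, and once arrays were levelled on the E1A control spots its difference was -0.0105.

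The binding proteins were called in opposite directions and differed in size. FST, follistatin, which binds activins nearly irreversibly and is itself induced by activin, gave -1.05, -1.34, -1.65 and -2.13 in the arrays labelled CFC1, against 0.00, 0.19, 0.16 and -0.24 in the mock arrays (A_23_P110531). Every array labelled CFC1 lay below every mock array. The difference of -1.57 (SE 0.232, 95% interval -2.12 to -1.03) is a ratio of 0.336 with an adjusted p of 0.00085 in limma. It passed under all 16 alternatives, and quantile normalization enlarged it to -2.71.

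FSTL3, a follistatin-like glycoprotein that also binds activins and myostatin, gave 0.00, -0.04, 0.18 and 0.12 in the arrays labelled CFC1, against -0.20, -0.18, -0.07 and -0.12 in the mock arrays (A_33_P3318796). The groups did not overlap, though the lowest array labelled CFC1 and the highest mock array were almost level. The rise of 0.21 (95% interval 0.05 to 0.36) is 1.15-fold (limma adjusted p = 0.0387). The call was lost after quantile normalization (0.332, adjusted p = 0.0559) and median centring (0.247, adjusted p = 0.0885), and on leaving out mock replicate 1, 2 or 4, CFC1 replicate 3 or CFC1 replicate 4 (0.166 to 0.213, adjusted p up to 0.0989 in limma).

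**Figure D2:**
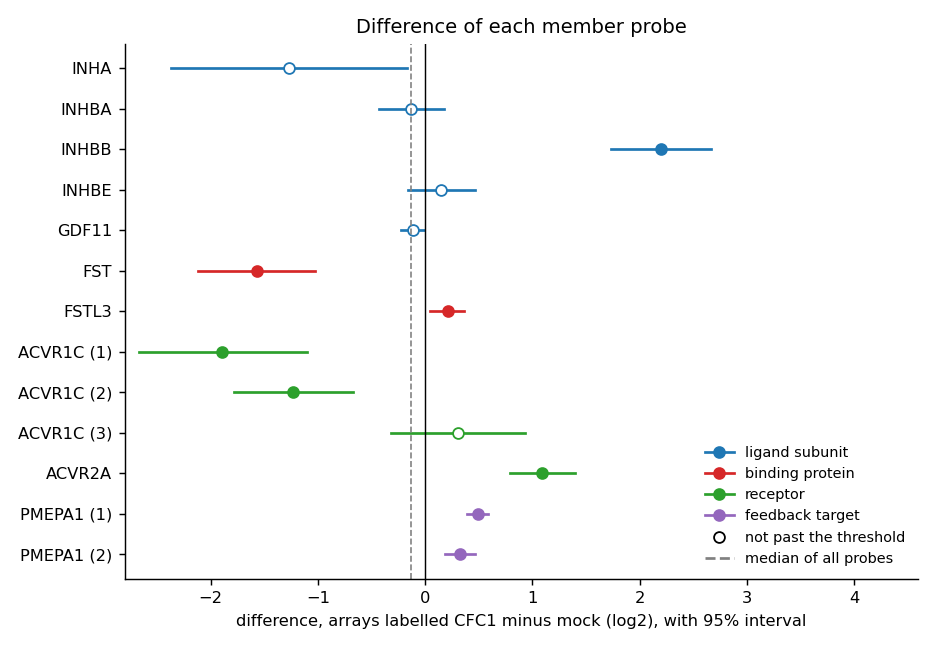
Difference of each member probe, arrays labelled CFC1 minus mock (log2, horizontal axis), with its 95% interval, coloured by role; open circles did not pass the threshold and the dashed line is the median of all probes. FST and INHBB lie on opposite sides of 0, at -1.57 and 2.20, as do the called probes of ACVR1C and ACVR2A.

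The called probes of the 2 receptors also differed in opposite directions. ACVR2A, the type II receptor that binds activins with high affinity, gave 0.16, 0.46, 0.51 and 0.24 in the arrays labelled CFC1, against -0.54, -1.06, -0.71 and -0.70 in the mock arrays (A_23_P153930). The groups lay on opposite sides of the baseline. The rise of 1.09 (SE 0.13, 95% interval 0.79 to 1.40) is 2.13-fold, with an adjusted p of 0.000256 in limma, and it passed under all 16 alternatives (0.992 to 1.2).

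ACVR1C, also called ALK7, is a type I receptor for activin B and Nodal, and its 3 probes did not give the same result. The first (A_23_P397455) read 0.00, 1.70, 0.72 and 0.56 in the arrays labelled CFC1, against 2.78, 2.39, 2.71 and 2.65 in the mock arrays. The second (A_32_P190944) read -0.27, -0.43, -0.48 and -0.16, against 1.23, 0.32, 1.37 and 0.65 in the mock arrays. In both, all arrays labelled CFC1 lay below all mock arrays, by -1.89 (95% interval -2.67 to -1.10, adjusted p = 0.00234) and -1.23 (95% interval -1.78 to -0.67, adjusted p = 0.00366) in limma. The third (A_33_P3327404) read -0.20, 0.64, -0.32 and 0.70, against -0.10, -0.22, -0.27 and 0.18 in the mock arrays, and its groups overlapped (0.31, 95% interval -0.32 to 0.93, limma adjusted p = 0.406). Leaving out CFC1 replicate 2, 3 or 4 gave 0.164, 0.485 or 0.143 for this probe. The first probe lost its call after quantile normalization (-1.08, limma adjusted p = 0.0841), while the second kept it under all 16 alternatives. These alternatives include the gene mean, which is taken over all 3 probes and is not a value of the second alone. The annotation assigns all 3 to the same transcript accession, and the mean over them, -0.93, describes none of the 3 single probes well.

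PMEPA1, a membrane protein induced by TGF-beta and activin that restrains SMAD signalling, was higher with both of its probes. The first (A_24_P413126) read 0.57, 0.52, 0.58 and 0.52 in the arrays labelled CFC1, against 0.07, 0.00, 0.06 and 0.09 in the mock arrays. The second (A_33_P3403867) read 0.28, 0.35, 0.49 and 0.35, against 0.00, 0.01, 0.10 and 0.04 in the mock arrays. The groups stood clear of each other in both. The rises were 0.49 (SE 0.0424, adjusted p = 4.03e-05) and 0.33 (SE 0.0588, adjusted p = 0.00248) in limma, or 1.41-fold and 1.26-fold. After quantile normalization they were 0.842 and 0.615, and both passed under all 16 alternatives, which include the gene mean over both probes.

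The group that lay farther from the baseline differed between members. For INHBB it was the arrays labelled CFC1, with a mean of 2.51, against 0.32 in the mock arrays, and FST and PMEPA1 were alike in this. For the first probe of ACVR1C the arrays labelled CFC1 had a mean of 0.75, against 2.63 in the mock arrays. Because the baseline is not stated, these positions do not show which group changed.

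**Figure D3:**
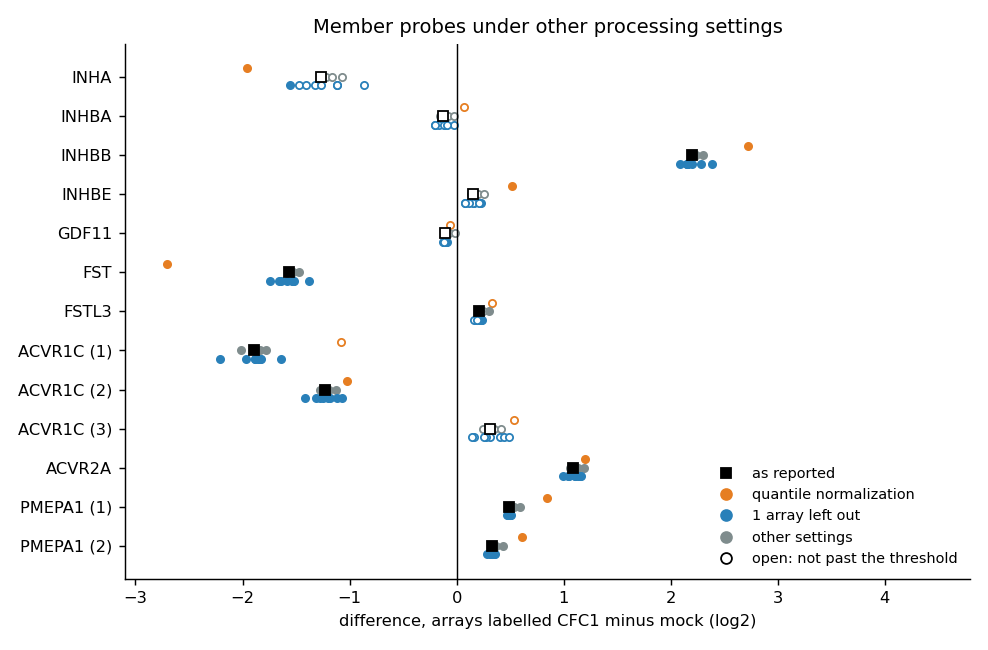
Difference of each member probe (log2, arrays labelled CFC1 minus mock) as reported (black squares), after quantile normalization (orange), with 1 array left out (blue) and under the other settings over probes (grey); open symbols did not pass the threshold. INHBB, FST, ACVR2A, PMEPA1 and the second probe of ACVR1C stay filled throughout, and INHA, INHBE, GDF11, FSTL3 and the first probe of ACVR1C have both filled and open symbols.

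Of 22 other components of the pathway, all measured, 7 were called higher and 10 lower by gene mean, where 29.7% of all genes were called higher and 28.2% lower, and their median difference was -0.15, beside -0.09 over all genes. TGFBR3L, known in mouse as an inhibin B co-receptor of pituitary gonadotropes, had the largest difference. It read 1.02, 1.12, 1.05 and 1.08 in the arrays labelled CFC1, against -1.95, -2.04, -1.81 and -2.06 in the mock arrays, a rise of 3.04 (SE 0.0619, limma adjusted p = 1.18e-08). The related secreted proteins WFIKKN1 and WFIKKN2, which bind myostatin and GDF11, rose by 2.06 (SE 0.163, 1.34 after quantile normalization) and 1.84 (SE 0.129). The probes of WFIKKN2 rose by 1.48 and 2.20. SMAD3, a signal transducer of activin, rose by 1.22 (SE 0.0383). PCSK5, a convertase that cleaves the GDF11 precursor in mouse, fell by 1.35 (SE 0.113), although only 2 of its 3 probes were called (-1.49 and -1.94, beside -0.62 for the third). CRIPTO, a co-receptor for Nodal that also binds activin, fell by 1.16 (SE 0.149).

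The partners of the members, chosen for naming after their values were seen, add the following. ACVR1B, the main type I receptor for activin, had a mean of 0.02 ± 0.03 in the arrays labelled CFC1 and 0.62 ± 0.05 in the mock arrays (SD, n = 4 each) and fell by 0.61 (limma adjusted p = 2.95e-06). ACVR2B, the other type II receptor for activin, fell by 0.51 (limma adjusted p = 6.27e-05), opposite in direction to ACVR2A, but was not called after quantile normalization (-0.201, limma adjusted p = 0.0541). SMAD2 fell by 1.03 while SMAD3 rose, and the shared partner SMAD4 fell by 0.40. TGFBR3, betaglycan, the classical inhibin co-receptor, fell by 0.60 (SE 0.0532). Quantile normalization moved ACVR1B, SMAD2, SMAD4 and TGFBR3 to -0.361, -0.669, -0.159 and -0.997, all of them still called. FURIN, which cleaves activin precursors, and BMP1, which cleaves the GDF11 propeptide, were not called (-0.15 and 0.23), although FURIN passed without mock replicate 4 (-0.293, limma adjusted p = 0.0381). BMP1 was 0.101 without mock replicate 4 and 0.136 without CFC1 replicate 1.

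Of 23 target genes of activin and Nodal signalling listed, 21 were measured, and 5 were called higher and 7 lower by gene mean, with a median of -0.16. Over all genes 29.7% were called higher and 28.2% lower, with a median of -0.09, so the count of targets called stands near the background. The uncalled targets NODAL, EOMES, MIXL1 and FSHB followed a profile shared by 5725 probes (11.3% of all). Whether their probes report on these genes was not tested, which limits the count as a measure of target response. CDKN1A, a cell cycle inhibitor that activin can induce, read -0.17, -0.02, 0.00 and -0.23 in the arrays labelled CFC1, against -1.32, -1.53, -1.86 and -1.52 in the mock arrays, a rise of 1.45 (SE 0.117, limma adjusted p = 1.69e-05). SMAD7 and SKIL, which restrain SMAD signalling and are induced by it, fell by 1.20 (SE 0.0483) and 0.79 (SE 0.0419), opposite in direction to PMEPA1, and SKIL stood at -0.473 after quantile normalization. LEFTY1, a Nodal antagonist, rose by 0.92 (SE 0.263) with overlapping groups. ID1, chiefly known as a BMP target, rose by 0.77 (SE 0.0369) and stood at 1.20 after quantile normalization. The other ID genes of the list, named after their values were seen, were called lower, ID2 at -0.31 (limma adjusted p = 3.44e-05) and ID3 at -0.13 (limma adjusted p = 0.0111). The call of ID3 was lost under the 3 other scalings (-0.0834 to -0.000273). GNRHR, the pituitary gonadotropin-releasing hormone receptor, was lower at -0.83 (SE 0.278, limma adjusted p = 0.0354), and its call was lost under 3 scalings, with unmoderated variances and on leaving out mock replicate 1, CFC1 replicate 1, CFC1 replicate 2 or CFC1 replicate 4 (-0.887 to -0.714). Scaling changed the number of targets called lower, which was 4 after quantile normalization and also 4 once arrays were levelled on the E1A control spots.

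**Figure D4:**
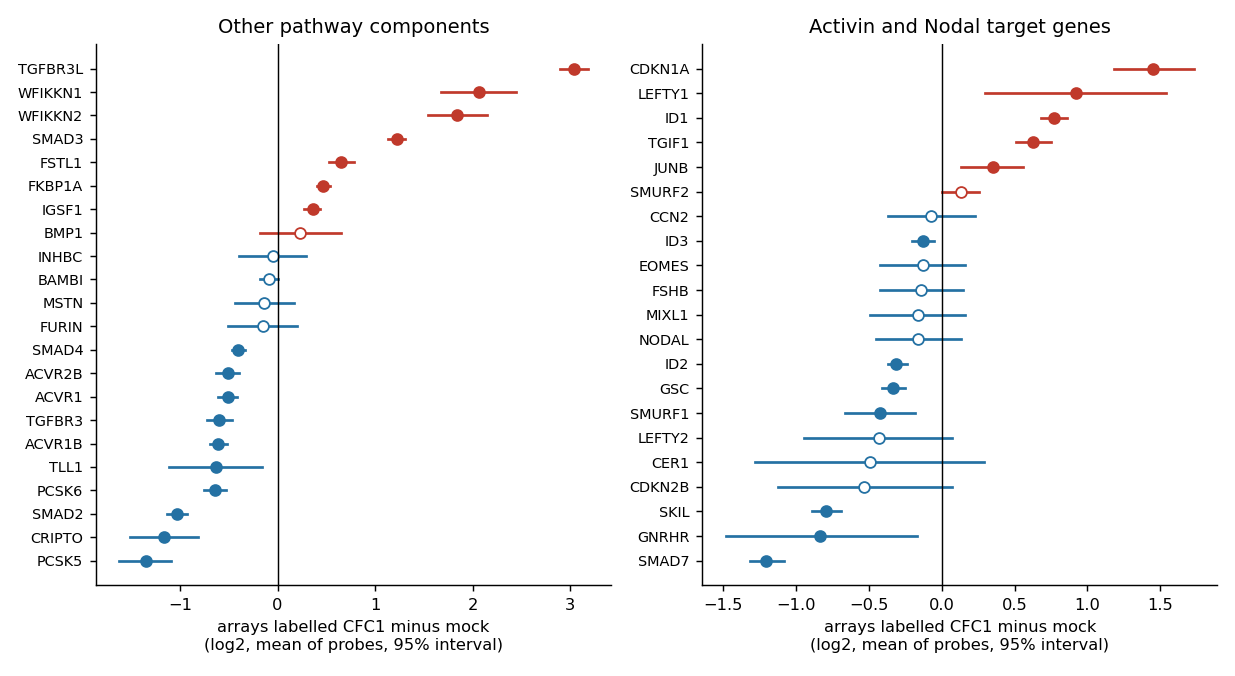
Differences by gene mean (log2, arrays labelled CFC1 minus mock, with 95% intervals) of the 22 other pathway components (left) and 21 measured activin and Nodal target genes (right), sorted by size; red is above 0, blue below, and open circles did not pass. TGFBR3L at 3.04 and PCSK5 at -1.35 end the left panel, and CDKN1A at 1.45 and SMAD7 at -1.20 the right one.

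Genes whose centred profile over the 8 arrays was most like that of INHBB were AS3MT, CAPN7 and RBM43, with root mean square differences of 0.141, 0.153 and 0.185 log2 units and rises of 2.09, 2.11 and 2.08. For FST they were CILP, KLHL30 and SLC2A1-DT, with root mean square differences of 0.151, 0.154 and 0.16 and differences of -1.55, -1.50 and -1.78. After quantile normalization these became -0.861, -3.16 and -3.82, beside -2.71 for FST. Under the same setting AS3MT, CAPN7 and RBM43 lay between 1.41 and 1.46, while INHBB stood at 2.72. The likeness to FST and that to INHBB therefore both depend on the scaling. The likeness rests mainly on a shared difference between the groups and is a description over 8 arrays.

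The 5 measured genes on either side of each member, in RefSeq gene order, give the chromosomal setting of the differences, where 57.9% of all genes were called, 29.7% higher and 28.2% lower. INHBB on chromosome 2 stood at 2.20, beside neighbours from -1.43 to 1.14 (median 0.14), and FST on chromosome 5 at -1.57, beside neighbours from -2.18 to 0.91 (median 0.15). In both cases the median of the neighbours lay far from the member. PMEPA1 on chromosome 20, at 0.41 by gene mean, lay among neighbours of which 5 of 10 were called higher and 0 lower in limma (median 0.29). INHBE lies on chromosome 12, near CDK4, whose region NGP is known to carry in extra copies. Copy number was not measured here, and its part in these differences was not tested. Of the 10 neighbours of INHBE, 7 were called lower and 2 higher (median -0.57). Among these, MBD6, STAC3, R3HDM2, DDIT3, SHMT2 and MARS1 differed by -1.09, -0.86, -0.72, -0.71, -0.43 and -0.40, and COXFA4L2 by -3.52, while GLI1 and ARHGAP9 were higher by 1.46 and 4.56. INHBE itself (0.15) and the adjoining subunit gene INHBC (-0.05) were not called.

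**Figure D5:**
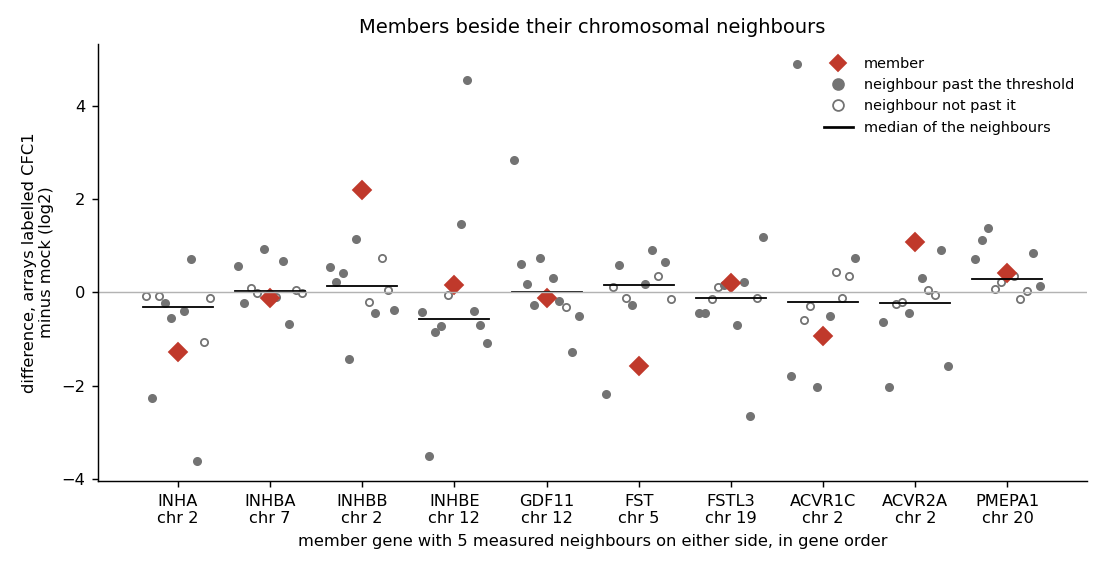
Difference of each member by gene mean (red diamonds, log2, arrays labelled CFC1 minus mock) and of the 5 measured genes on either side in gene order (grey; open did not pass), with the median of the neighbours as a line. INHBB at 2.20 lies above all 10 of its neighbours, and PMEPA1 at 0.41 lies among neighbours with a median of 0.29.

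Markers of cell types were compared by gene mean, and no level can be read from these values, so presence or absence of a marker was not judged. The counts stand beside the 57.9% of all genes called, 29.7% higher and 28.2% lower. Of 7 measured adrenergic neuroblastoma markers, MYCN rose by 0.16 and 4 were called lower (median -0.35), with group means from -0.39 to 0.07 in the arrays labelled CFC1 and from -0.41 to 1.19 in the mock arrays. The rise of MYCN was not called after quantile normalization (0.127, limma adjusted p = 0.127) or median centring (0.204, limma adjusted p = 0.0982). Of 8 fibroblast and mural markers, 7 were called lower (median -1.29), among them RGS5 at -3.83 and PDGFRA at -2.78, with means from -0.56 to 0.20 in the arrays labelled CFC1 and from -0.10 to 3.89 in the mock arrays. The probes of DCN differed by -2.10 and -0.17, and only the larger fall was called. Of 4 measured Schwann and glial markers, 3 were called lower (means from -0.87 to 0.23 in the arrays labelled CFC1 and from 0.15 to 0.65 in the mock arrays). The probes of S100B differed by -2.55 and -0.15 and those of GFAP by -1.31 and -0.50. Only the larger fall of each gene was called, that of GFAP with overlapping groups. Of 6 endothelial markers, 1 was called higher and 2 lower (means from -0.12 to 0.57 in the arrays labelled CFC1 and from -3.32 to 3.46 in the mock arrays). Their part in the results for FST, INHBB and the other members was not tested. Of 6 gonadal and pituitary markers, from tissues in which inhibins act as hormones, 0 were called in limma, adjusted or before adjustment (differences from -0.29 to 0.11). FSHB among them had the profile shared by 5725 probes, and whether its probe reports on the gene was not tested.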

How the data were processed

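Total RNA of 8 samples was measured on one-colour Agilent arrays with Cyanine3 label, per the labels' protocols. The authors deposited 50739 values per array, read here as log2 values. For the log base, background treatment, scaling between arrays and baseline, nothing is given in the sources used here. Values ran from -13.0 to 9.81 and array medians from -0.145 to 0.139. No probe had all 8 arrays above 0 or all below 0. The number of arrays limits the precision, and without signal flags a probe near background cannot be told apart from others.

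Without the 140 control spots there were 50599 probes, 31993 with 1 gene symbol, none with several and 18606 unnamed. Symbols came from the platform annotation, updated through RefSeq (GRCh38.p14) by accession for 28419 probes, by symbol for 3072 and by synonym for 480, with 22 kept. The arrays labelled CFC1 were compared with mock by limma 3.58.1 in R 4.3.3 (lmFit, eBayes without a trend, no replicate block), once over all probes, for the members, and once over the mean of the probes of each of 21524 genes, for the lists. The fit was tested on simulated data. CFC1 was also compared by exact permutation over 70 arrangements. Figures were made with matplotlib 3.10.9 in Python 3.11.15.

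All 10 members, and up to 6 called genes with the largest difference from the component and target lists, are named. Also named are the 3 genes most like the members with the largest rise and fall, and the neighbours of INHBE. Members and lists were chosen with earlier results of these data known. Alternatives were quantile normalization, the replicate number as a block, median centring, arrays levelled on the 10 E1A control spots, array weights, a variance trend, unmoderated variances, gene means and leaving out each array.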

Additional observations from a re-analysis of the deposited data

How the results depend on the processing

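Of 208 values of the 13 member probes under alternatives, 193 kept both direction and side of the threshold, 8 lost a call, 5 gained one and 2 uncalled values changed sign. These were INHBA (0.0645 after quantile normalization) and the third ACVR1C probe, whose gene mean of -0.935 over 3 probes was called and is not the value of that probe itself. The cause was not tested for any of these changes. The 208 values include gene means, which for ACVR1C and PMEPA1 are means over several probes. CFC1 passed with array weights (-0.805, adjusted p = 0.046), over gene means (-0.796, adjusted p = 0.0398) and without mock replicate 4 or CFC1 replicate 1 in limma, and ran from -0.944 to -0.568 when single arrays were left out. The number of target genes called lower was 7, with 6 to 8 when single arrays were left out, and 4 after quantile normalization or with arrays levelled on the E1A control spots. Member probes called higher stayed at 4 or 5 and those called lower at 3 or 4 under every alternative over probes, but not always the same probes. After quantile normalization FSTL3 and the first ACVR1C probe lost their calls, while INHBE and INHA gained one. The gene means alternative counts genes and not probes, with 4 called higher and 3 lower. The uncalled gene INHBC (-0.05) turned sign after quantile normalization (0.0978), with the E1A setting (0.0499) and without mock replicate 1 or 2, with a range of -0.163 to 0.0262 when single arrays were left out. Levelling arrays on the E1A control spots moved the median of all probes by 0.102, from -0.135 to -0.033, so the small differences of GDF11, INHBA and FSTL3 depend on the scaling. Arrays with the same replicate number deviated together weakly (correlations of 0.132, 0.197, 0.095 and 0.173 over probes), each with its best match in its own number, which is a hint from the data and not the design. With the replicate number as a block, 21980 probes were called, beside 21289 without it, and no member probe changed its call. CFC1 then had an adjusted p of 0.0972, and LEFTY1 lost its call (0.92, adjusted p = 0.0682). Quantile normalization also moved CHGA, DBH, HAND2, COL3A1, PDGFRB, R3HDM2, GLI1, MARS1 and ID2 by 1.51 to 2.4 times, and the E1A setting moved MYCN by 1.63 times, with direction and call kept. A filter on dim probes could not be run, because the values carry no level.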

Other observations

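Several developmental and hormone genes, picked out after their values were seen, shared 1 profile over the arrays. FSHB read -0.11, -0.34, -0.31 and -0.02 in the arrays labelled CFC1, against -0.09, -0.12, -0.26 and 0.23 in the mock arrays. The probes of NODAL, EOMES, MIXL1 and MSTN stayed within a root mean square difference of 0.0936 log2 units of it after centring. In all, 5725 probes (11.3% of all) lay within 0.1 of that profile, and 59.3% of these had no gene name, beside 36.8% of all probes. None of the 13 member probes did (0), and the nearest were GDF11 at 0.163 and INHBA at 0.235.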
